A study of Mus musculus with 22 samples.

Results

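Genes of early neurogenesis and of the Notch pathway were followed, 4 in all, in Folr2-null mouse embryos, in RNA of the anterior neural tube: Dll3, Numb, Isl1 and Nefm. They were taken as every probe whose single gene symbol in the array annotation is one of these names, which gave 4 probes, 1 for each gene, of the 10500 on the array. Pregnant Folr2-/- dams were injected intraperitoneally at gestational day (GD) 7:12 and again at GD8:12, with sodium arsenate (9.6 mg of arsenic per kg of body weight) or with water (10 µL per g). At GD8:15, 3 h after the second injection, there were 4 control and 4 arsenic arrays. GD9:00, 12 h after it, had 4 control and 3 arsenic arrays. GD9:12, 24 h after it, had 3 control and 4 arsenic arrays. Every embryo in both arms lacked Folr2, so no comparison here is with embryos that have the gene. The study asked which genes arsenic changes in this tissue during neural tube closure. RNA was amplified and labelled with biotin, and each sample was hybridised to 1 CodeLink UniSet 10K array, read in 1 colour.

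Notch signalling runs between neighbouring cells. A ligand on one cell binds a Notch receptor on the next, the receptor is cut, and its inner part joins the DNA-binding protein RBPJ to switch on Hes and Hey genes, which hold a progenitor back from becoming a neuron. Dll3 is a divergent Delta-like ligand, known for its part in somite formation and for acting inside the cell that makes it. Numb is an adaptor protein that promotes the removal of Notch and is divided unequally between some daughter cells. Isl1 is a LIM-homeodomain transcription factor of motor and sensory neurons that also marks second heart field progenitors and pharyngeal endoderm. Nefm encodes the medium neurofilament subunit of the neuronal cytoskeleton.

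The promoter windows of Isl1 and Dll3 are shown because these genes stood in different orders over the stages, and because proneural factors bind E-boxes and RBPJ mediates Notch output. Windows for 3 of the 4 genes were found in the RefSeq table (GRCm38.p6); Nefm was not matched, and Numb has several starts. Each run below is the 250 bases before the annotated start, read 5′ to 3′ on the strand of the gene, here the minus strand, with E-boxes (CANNTG, the same letters on both strands) in capitals. The Isl1 window is chr13:116309689-116309938 and holds 1 E-box. The Dll3 window is chr7:28301786-28302035 and holds 2. Neither holds the RBPJ core TGGGAA on either strand, where an E-box and the core can share the letters TG. Of 32851 windows of this length, 66.2% hold an E-box and 21.6% the RBPJ core.
Isl1: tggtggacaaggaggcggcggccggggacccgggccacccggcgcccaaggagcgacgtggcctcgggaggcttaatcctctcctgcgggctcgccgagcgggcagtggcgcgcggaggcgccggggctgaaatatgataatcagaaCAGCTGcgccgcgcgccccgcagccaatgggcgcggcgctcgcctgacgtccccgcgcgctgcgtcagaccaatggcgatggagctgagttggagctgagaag
Dll3: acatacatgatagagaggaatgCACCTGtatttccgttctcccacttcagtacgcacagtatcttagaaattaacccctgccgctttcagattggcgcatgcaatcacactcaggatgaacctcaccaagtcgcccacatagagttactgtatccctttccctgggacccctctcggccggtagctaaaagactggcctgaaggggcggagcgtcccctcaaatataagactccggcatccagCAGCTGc
A match describes the letters of these windows and is not evidence of binding.

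The intensities deposited by the authors have the same mean on every array of a stage (600 at GD8:15, 500 at GD9:00 and 1000 at GD9:12), so levels below are quantile-normalised log2 intensities, and tests are from limma over the 7830 probes that passed a filter on dim or rarely measured probes. All 4 genes passed it. Within groups, pairs of arrays correlated over probes with a median r of 0.948 (0.866 to 0.979). Folr2 lay at percentile 2.93 of mean level and was not tested. Different probes of 1 gene correlated over arrays with a median r of 0.0376 (94 genes), so a value stands for its probe. Codes in the sample titles fall into 4 series, called A to D here, whose meaning the labels do not give. Arsenic arrays at GD8:15 were all of series D and arrays at GD9:00 all of series C. Controls at GD8:15 were of A, D, C and D in order of replicate, those at GD9:12 of B, C and C, and arsenic arrays at GD9:12 of C. Xist was higher in every arsenic array than in any control at both earlier stages (group means 8.43 and 7.06 at GD8:15, 10.07 and 7.53 at GD9:00). Eif2s3y, on the Y chromosome, was lower in every arsenic array at GD8:15 (7.2 and 7.7), but the arms overlapped at GD9:00 (7.12 and 7.53). Kdm5d, also on the Y chromosome, differed by 0.91 at GD9:00, higher with arsenic (adjusted p = 0.49 by limma). Embryo sex and arsenic cannot be told apart at these 2 stages. In arsenic arrays from GD9:00 to GD9:12, Xist differed by -3.00 and Eif2s3y by 0.65 (adjusted p = 0.0254 and 0.0484). Embryo sex and stage cannot be told apart there either. All 9 neural progenitor markers on the array passed the filter, among them Sox2, Pax6 and Nes. Of 27 neuron protein genes on the array 11 were not tested, the defining markers Nefl and Elavl4 because they were dim and Tubb3 because it had values on too few arrays. In these bulk samples, fewer cells of a type and less RNA per cell cannot be told apart.

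None of the 4 genes differed between arsenic and control at any stage by limma at an adjusted p of 0.05 (Benjamini-Hochberg over all tested probes). The same held for every probe, with 0 of 7830 called (0%) at each stage. At an unadjusted p of 0.05, 1 of the 4 genes passed at GD8:15 (Dll3), 2 at GD9:00 (Numb and Isl1) and 0 at GD9:12, against 7.29%, 12.6% and 1.28% of all probes. The arms overlapped for each gene at every stage, as they did for all but 3.84%, 9.63% and 5.01% of probes. The clearer differences lay between stages. In controls, Isl1 rose and Nefm and Numb fell between GD8:15 and GD9:00, where 15% of all probes were called (8.15% higher and 6.83% lower). Control Isl1 fell again by GD9:12, where 11.2% of all probes were called (7.42% lower). The calls between GD8:15 and GD9:00 are bound to the title-code series: with the series as a block, the number of called probes between GD8:15 and GD9:00 in controls dropped from 1173 to 35, since 1 control array at GD8:15 belongs to series C.

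**Figure D1:**
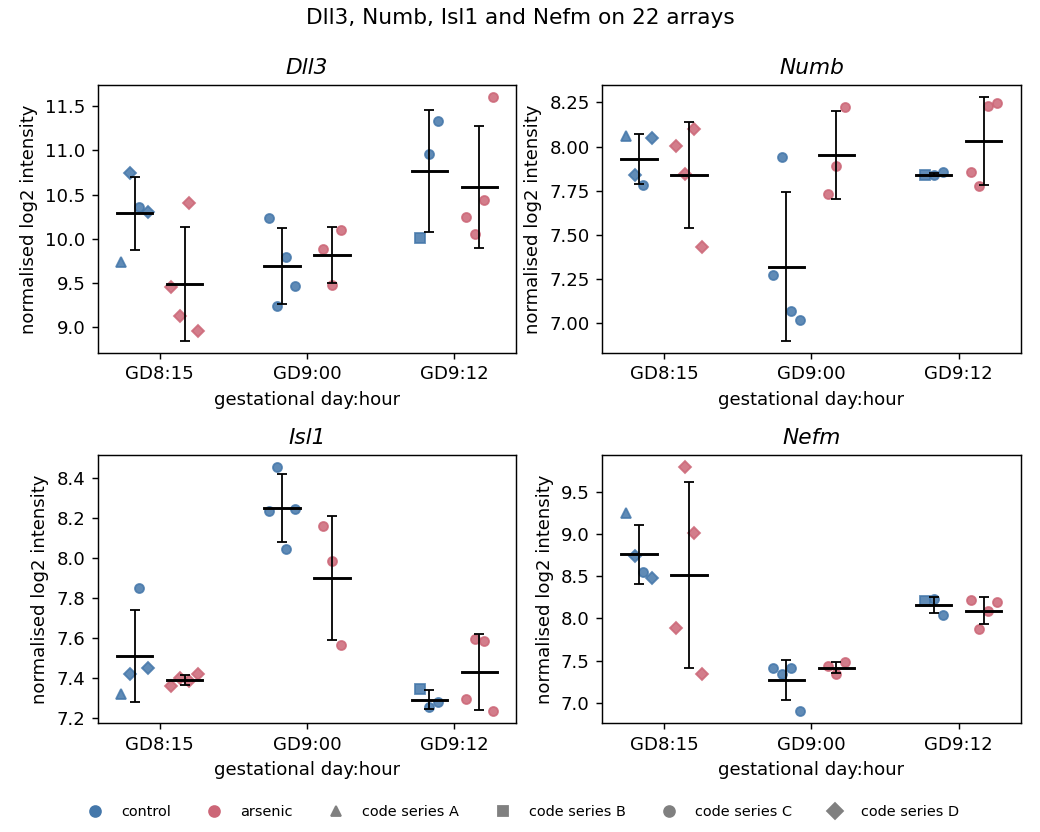
Normalised log2 intensity of Dll3, Numb, Isl1 and Nefm (y axis) on all 22 arrays by stage (x axis), controls in blue and arsenic arrays in red; symbols give the title-code series, thick bars the group mean and whiskers the SD. Control Isl1 at GD9:00 lies between 8.05 and 8.46, above every array of GD8:15 and GD9:12, and Nefm at GD9:00 lies at or below 7.48 on all 7 arrays.

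Dll3, the ligand, was lower in 3 of 4 arsenic arrays than in any control at GD8:15. Control arrays read 9.74, 10.74, 10.36 and 10.31, and arsenic arrays 9.46, 9.13, 10.41 and 8.96. The groups overlapped through the third arsenic array, which was second only to the second control. The difference was -0.80 ± 0.37 (SE; a ratio of 1.74, 95% interval -1.58 to -0.02), with an adjusted p of 0.661 by limma and 0.114 by an exact 2-sided permutation test, which cannot go below 0.0286 here. Without that array the difference was -1.12, and within series D it was -1.04. Probes with numbers near Dll3 moved with it: its deviations correlated with the median deviation of the 51 neighbouring probe numbers at r = 0.61 over the 22 arrays, and at 0.84 within groups. That local median was 0.16 on the high arsenic array and -0.17 on the lowest. After subtracting it, an alternative chosen after seeing the data, the difference was again -0.80, with an SE of 0.31 and an adjusted p of 0.506 by limma.

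At GD9:00 the Dll3 arms overlapped fully. Controls read 10.24, 9.25, 9.80 and 9.47, and arsenic arrays 9.89, 9.48 and 10.10. The difference was 0.14 ± 0.40 (adjusted p = 0.917 by limma), and it turned to -0.45 under median centring of the arrays. At GD9:12 controls read 10.01, 10.96 and 11.34, and arsenic arrays 10.25, 10.06, 10.45 and 11.60. The lowest of these controls was the only array of series B, and the highest value of the series was the fourth arsenic array. The difference there was -0.18 ± 0.40 (adjusted p = 1 by limma). It read 0.11 without the third control and -0.56 without the first.

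Over the stages Dll3 was highest at GD9:12 in both arms, but no stage difference passed the test. From GD9:00 to GD9:12 it differed by 1.08 ± 0.40 in controls (2.12-fold, adjusted p = 0.0921 by limma) and by 0.77 ± 0.40 in arsenic arrays (adjusted p = 0.364). Between GD8:15 and GD9:12 in arsenic arrays it differed by 1.10 ± 0.37 (2.14-fold, adjusted p = 0.0558). These values depend on the scaling. Dll3 lay at percentile 91.8 of mean level. Under median centring the GD9:00 to GD9:12 differences were 1.55 in controls and 1.73 in arsenic arrays, and both passed (adjusted p = 0.0145 and 0.0131 by limma). Without the series B control the main control difference was 1.46 and passed (adjusted p = 0.0469).

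Numb, the Notch antagonist, gave the lowest p of the 4 genes among the arsenic comparisons, at GD9:00. Controls read 7.27, 7.94, 7.07 and 7.02, and arsenic arrays 7.73, 7.89 and 8.22. Of the controls, 3 lay below every arsenic array and the second lay among them. The arsenic arrays were higher by 0.62 ± 0.20 (1.54-fold, 95% interval 0.20 to 1.05), with a p of 0.00624 and an adjusted p of 0.268 by limma. The exact permutation p was 0.171, with 0.0571 the smallest possible. Without the second control the difference was 0.82 and passed (adjusted p = 0.0397).

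The same control arrays set the stage difference of Numb. At GD8:15 controls read 8.06, 7.84, 7.78 and 8.05, and arsenic arrays 8.00, 7.85, 8.10 and 7.43. In controls Numb fell by 0.61 ± 0.19 on the log2 scale from GD8:15 to GD9:00 (1.52-fold, adjusted p = 0.0354 by limma), although the second GD9:00 control overlapped the earlier group. In arsenic arrays the same stages differed by 0.10 ± 0.20 (adjusted p = 0.842). The arsenic effect at GD9:00 exceeded that at GD8:15 by 0.71 ± 0.27, with an adjusted p of 0.531. At GD9:12 the 3 controls lay at 7.84, 7.84 and 7.85 and the arsenic arrays at 7.86, 7.78, 8.23 and 8.25. That difference was 0.18 ± 0.20 (adjusted p = 1).

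Probes with numbers near Numb moved with it. Its deviations from its overall mean correlated at r = 0.90 over the 22 arrays (0.88 within groups) with the median deviation of the 51 neighbouring probe numbers, a description of arrays that share stage and scaling. That local median was -0.17, -0.40 and -0.37 on GD9:00 controls 1, 3 and 4, where Numb was low, and 0.10 on the second, where it was not. On the third arsenic array of GD9:00, where Numb was highest in its group, it was 0.25. The 5 probes most like Numb over all arrays (Erg, Hk1, Art1, Wrap73 and Slamf1, r 0.92 to 0.94) lay 36 to 51 probe numbers away. After subtraction of the local median the arsenic difference at GD9:00 was 0.30 ± 0.13 (adjusted p = 0.404 by limma). The control difference from GD8:15 to GD9:00 became -0.35 and no longer passed (adjusted p = 0.0561). Whether probe numbers follow positions on the slide is not given in the sources used here.

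**Figure D2:**
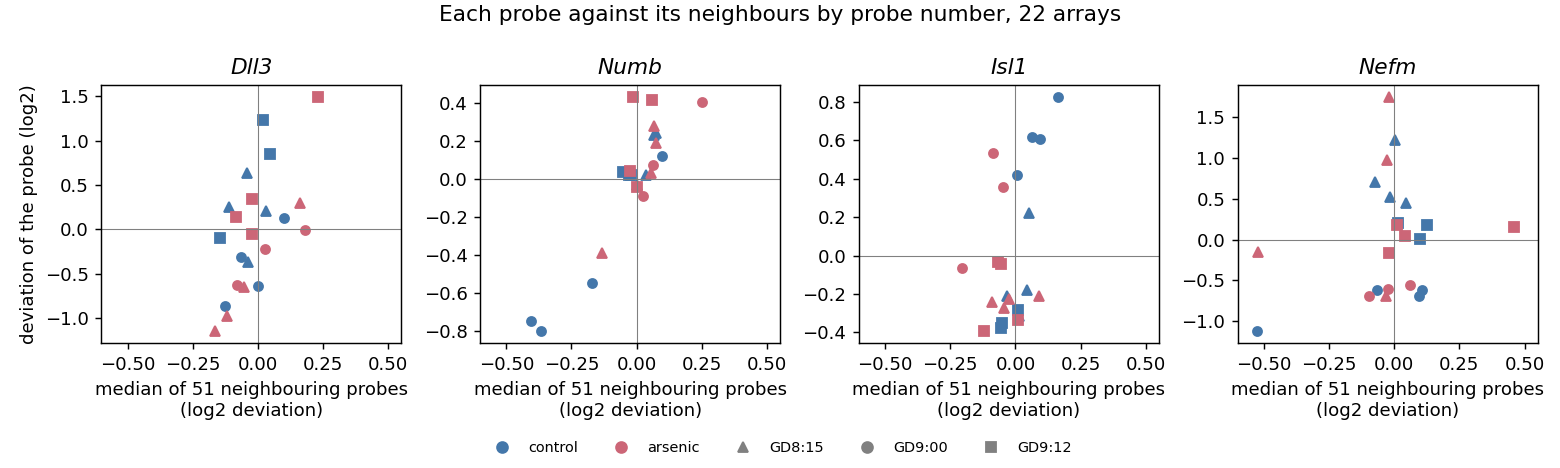
Deviation of each probe from the mean of its 6 group means (y axis, log2) against the median deviation of the 51 neighbouring probe numbers on the same array (x axis, log2), 22 arrays per panel, colours for treatment and symbols for stage. Numb follows its neighbours (r = 0.90) and Dll3 does so in part (r = 0.61, and 0.84 within groups), while Isl1 (r = 0.46) and Nefm (r = 0.22) spread more widely than theirs.

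Isl1, the neuron and heart-field transcription factor, was higher in GD9:00 controls than in those of either other stage. Controls read 7.32, 7.42, 7.85 and 7.45 at GD8:15, then 8.23, 8.46, 8.05 and 8.25 at GD9:00, then 7.34, 7.25 and 7.28 at GD9:12. The GD9:00 group overlapped neither neighbour, as for 22.2% and 30.1% of all probes in these contrasts. To GD9:00 Isl1 rose by 0.74 ± 0.13 (1.67-fold, adjusted p = 0.00176 by limma). From GD9:00 to GD9:12 it fell by 0.95 ± 0.14 on the log2 scale (1.94-fold, adjusted p = 0.000496). Both calls held whichever of the 22 arrays was left out, with differences of 0.66 to 0.84 and of -1.02 to -0.87.

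Scaling and title code bear on these Isl1 calls. In the deposited values, the GD8:15 controls read 165, 194, 171 and 211 for Isl1. The GD9:00 controls read 222, 263, 183 and 219, and the GD9:12 controls 200, 139 and 179, so that these groups overlapped. On that scale the differences were 0.25 and -0.37 and neither passed (adjusted p = 0.289 and 0.122 by limma). The median of all tested probes on that scale shifted by -0.49 and 0.79 in the same contrasts, and relative to it Isl1 differed by 0.75 and -1.15. The highest GD8:15 control, at 7.85, was the only one of series C. With the series as a block the earlier difference was 0.40 (adjusted p = 0.638), whereas the later one was -0.98 and passed (adjusted p = 0.00247). Subtracting the local median left both calls in place, at 0.67 and -0.84.

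Isl1 in arsenic arrays was also highest at GD9:00, with smaller differences from the other stages. At GD8:15 the arrays read 7.36, 7.40, 7.38 and 7.42. At GD9:00 they read 8.16, 7.99 and 7.57, and at GD9:12 they read 7.29, 7.59, 7.58 and 7.23. The third GD9:00 array lay within the range of GD9:12. Isl1 rose by 0.51 ± 0.14 from GD8:15 to GD9:00 (adjusted p = 0.0498 by limma, with 4.21% of all probes called, 2.4% higher), with no overlap of the groups, as for 13.7% of all probes. That call was lost in 17 of the 22 leave-one-out fits. From GD9:00 to GD9:12 it differed by -0.48 ± 0.14 (adjusted p = 0.0726, with 3.88% of all probes called). Without the third GD9:00 arsenic array the later difference was -0.66 and passed (adjusted p = 0.0217).

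Between arms, Isl1 at GD9:00 was lower with arsenic by 0.34 ± 0.14 (95% interval -0.64 to -0.04), with an adjusted p of 0.358 by limma and 0.114 by the exact permutation test. Of the 3 arsenic arrays, 2 lay below all 4 controls. Without the third of them, where the local median was -0.20, the difference was -0.17, and after local subtraction it was -0.14. At GD8:15 it was -0.12 ± 0.13 and at GD9:12 it was 0.14 ± 0.14 (adjusted p = 0.966 and 1). The change of the arsenic effect from GD9:00 to GD9:12 was 0.48 ± 0.20, with an adjusted p of 0.767, so a difference in course between the arms was not shown.

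Nefm, the neurofilament gene, fell from GD8:15 to GD9:00. Controls read 9.25, 8.74, 8.55 and 8.49 at GD8:15 and 7.42, 7.34, 7.42 and 6.91 at GD9:00, with no overlap. The fall was 1.49 ± 0.35 on the log2 scale (2.80-fold, adjusted p = 0.00935 by limma). It passed on the deposited scale too (-1.97, adjusted p = 0.000398). Its call held in all 22 leave-one-out fits (-1.60 to -1.33) but not with the title-code series as a block (-1.28, adjusted p = 0.55). At GD9:12 controls read 8.21, 8.24 and 8.04, again above every GD9:00 array. That difference was 0.89 ± 0.38 and did not pass (adjusted p = 0.138). Groups that do not overlap were common there, at 30.1% of all probes, and at 22.2% between GD8:15 and GD9:00. In arsenic arrays Nefm at GD9:00 and GD9:12 did not overlap either, as for 18.1% of all probes, with a difference of 0.67 ± 0.38 (adjusted p = 0.402).

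Nefm with arsenic was variable at GD8:15. The arrays read 7.89, 9.79, 9.02 and 7.34, so that the second was above every control, the first below them, and the fourth the lowest of all. Their SD was 1.1, against 0.35 in controls, and the difference was -0.25 ± 0.35 (adjusted p = 0.987 by limma). The local median was -0.52 on the first of these arrays and -0.03 on the fourth. At GD9:00 arsenic arrays read 7.43, 7.34 and 7.48, and at GD9:12 8.22, 7.87, 8.08 and 8.19. Differences from control were 0.15 ± 0.38 and -0.07 ± 0.38 (adjusted p = 0.901 and 1). Between GD8:15 and GD9:00 arsenic arrays differed by -1.09 ± 0.38 (adjusted p = 0.115). Without the fourth GD8:15 array this was -1.49 and passed (adjusted p = 0.016).

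**Figure D3:**
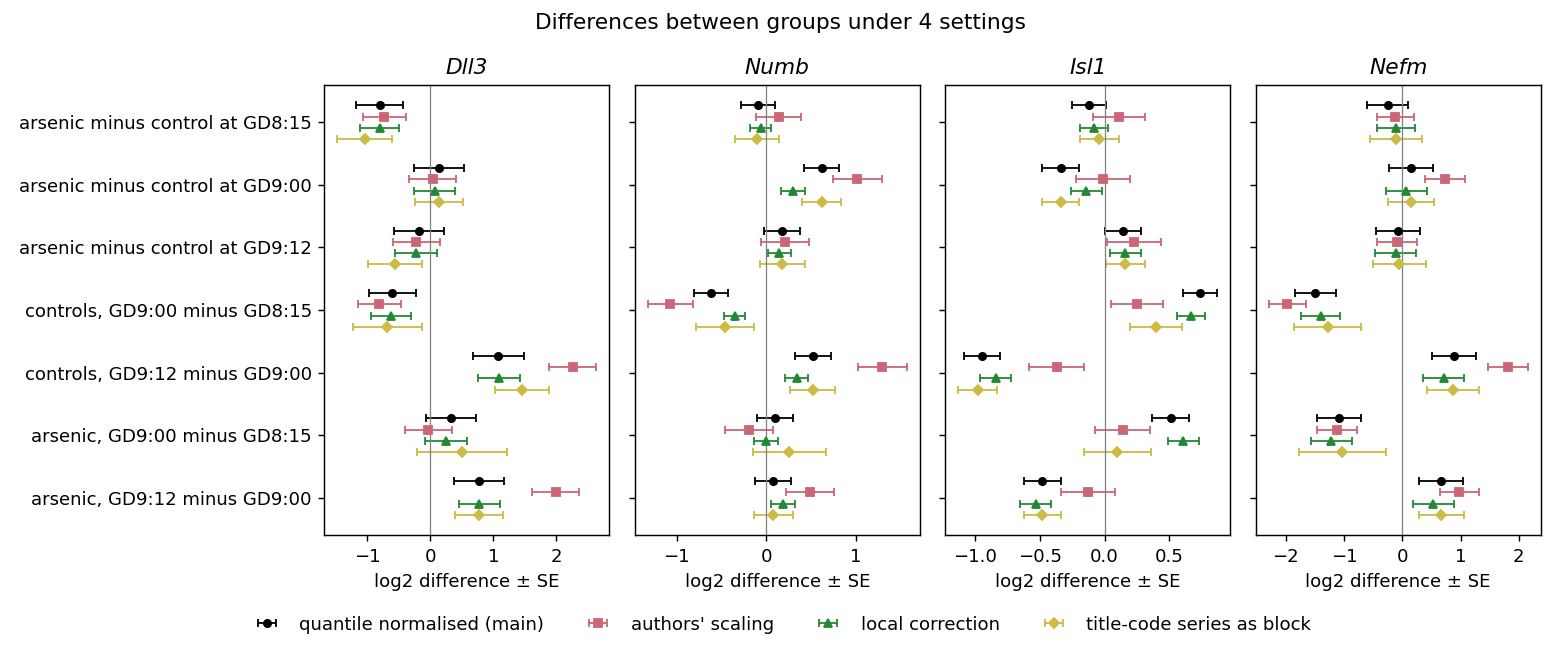
Log2 difference between groups with its SE (x axis) for 7 contrasts (y axis) and each gene, from quantile-normalised values (black), the deposited scaling (red), local correction (green) and a block for title-code series (yellow). Numb at GD9:00 moves from 0.62 to 0.30 with local correction, and Isl1 between GD9:00 and GD9:12 in controls stays at -0.84 or lower except on the deposited scale (-0.37).

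Ordered by group mean, Dll3 ran from 10.77 ± 0.69 (SD, n = 3, control GD9:12) through 10.59, 10.29, 9.82 and 9.69 to 9.49 ± 0.64 (n = 4, arsenic GD8:15), and no neighbours in that order differed beyond their spread. Numb ran from 8.03 ± 0.25 (n = 4, arsenic GD9:12) to 7.84 over 5 groups that differed by at most 0.09 between neighbours, with control GD9:00 apart at 7.32 ± 0.42 (n = 4, adjusted p = 0.108 by limma against the next). Isl1 ran from 8.25 ± 0.17 (n = 4, control GD9:00) and 7.90 ± 0.31 (n = 3, arsenic GD9:00) to 4 groups between 7.51 and 7.29. Nefm ran from 8.76 ± 0.35 (n = 4, control GD8:15) and 8.51 through 8.16 and 8.09 to 7.42 and 7.27 ± 0.24 (n = 4, control GD9:00). For Isl1 and Nefm too, no pair of neighbouring groups in the order passed the test.

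Over the 22 arrays, which share stages and scaling, Isl1 and Nefm were related with r = -0.63, which was -0.17 for deviations from group means and -0.30 on the deposited scale. Dll3 and Numb gave 0.36 (0.23 for deviations from group means and 0.52 on the deposited scale). In the same order, Dll3 and Isl1 gave -0.42 (-0.29 and -0.33). Numb with Isl1 gave -0.54 (-0.12 and -0.01) and Numb with Nefm 0.48 (0.34 and 0.75). By Pearson r over the same arrays, the 5 probes most like Isl1 were Mcm5, a subunit of the replicative helicase (0.94), Glrx3 (0.92), and Slc6a2, Spata5 and Map2k1 (0.91 each). The highest 1% of all r with Isl1 began at 0.85. Those most like Nefm were Mllt3 (0.86), Zfp385a, Igfbp7, Grasp and B3galnt1 (0.81 to 0.83), and those most like Dll3 were Ada, Hoxb5, Flt4, Terf1 and Hsd3b5 (0.78 to 0.80). Hoxb5 lies 5 probe numbers from Dll3.

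The rest of the Notch pathway was read from lists of ligands, receptors, processing factors and targets. Of the other ligands, Jag1, Jag2, Dlk1 and Dner were tested and Dll1 and Dll4 were below the filter. No ligand and none of the 4 receptors was called in any contrast by limma. At an unadjusted p of 0.05, 2 of 5 ligands and 1 of 4 receptors passed from GD8:15 to GD9:00 in controls, against 31.4% of all probes. Jag1 differed by 0.47 ± 0.16 there (adjusted p = 0.0557) and Jag2 by -0.33 ± 0.12 (adjusted p = 0.0796). Notch1 differed by -0.43 ± 0.23 between arms at GD9:12 (adjusted p = 1). Over the 5 ligands the median arsenic difference was -0.05, 0.10 and -0.10 at the 3 stages, against 0.00, 0.01 and -0.01 over all probes.

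Processing factors and modifiers, the list that holds Numb, had 16 tested genes. In controls 2 rose and 5 fell between GD8:15 and GD9:00, against 8.15% higher and 6.83% lower of all probes, and the list had a median of -0.19 against -0.02. The falls were Nedd4, a ubiquitin ligase that acts on Notch (-1.67 ± 0.35, adjusted p = 0.00478 by limma), Dtx3 (-1.15), the Fringe glycosyltransferase Rfng (-0.83 ± 0.17, adjusted p = 0.00448), Numb, and the gamma-secretase subunit Ncstn (-0.23). Itch, a ubiquitin ligase, rose by 0.45 and Dtx2 by 0.34. Both read below 0 on the deposited scale, at -0.06 and -0.21. Under median centring Nedd4 (-1.28) and Dtx3 (-0.81) did not pass. Rfng also fell from GD8:15 to GD9:00 in arsenic arrays (-0.82 ± 0.19, adjusted p = 0.0175), a call that ended under median centring (-0.69). Over the whole interval to GD9:12, 1 of the 16 fell in controls, and 1 rose and 2 fell in arsenic arrays, against 7.71% and 13.8% of all probes called. The riser was Adam17, a protease that can cut Notch (1.21 ± 0.26, adjusted p = 0.00457). No gene of the list was called between arms, where 1 of 16 had an unadjusted p under 0.05 at each stage.

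Among 11 tested genes of the nuclear complex and its targets, Id3, an inhibitor of basic helix-loop-helix factors, was called alone. It rose by 1.25 ± 0.37 from GD8:15 to GD9:00 in controls (adjusted p = 0.0297 by limma) and fell by 1.26 ± 0.40 on the log2 scale to GD9:12 (adjusted p = 0.0495). The fall was -0.10 on the deposited scale, where the median of all tested probes shifted by 0.79. It was -0.81 under median centring and -1.11 after local subtraction, and passed under none of these. Rbpj, the DNA-binding partner of Notch, read 0.39 ± 0.14 and -0.40 ± 0.15 in these 2 contrasts (adjusted p = 0.0625 and 0.0847), and -0.39 ± 0.15 between arms at GD9:00 (adjusted p = 0.318). Hes1, Hey1 and Hey2 were below the filter, Hes1 at percentile 1.26. Hes6, Nrarp and Heyl were tested, and none was called.

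**Figure D4:**
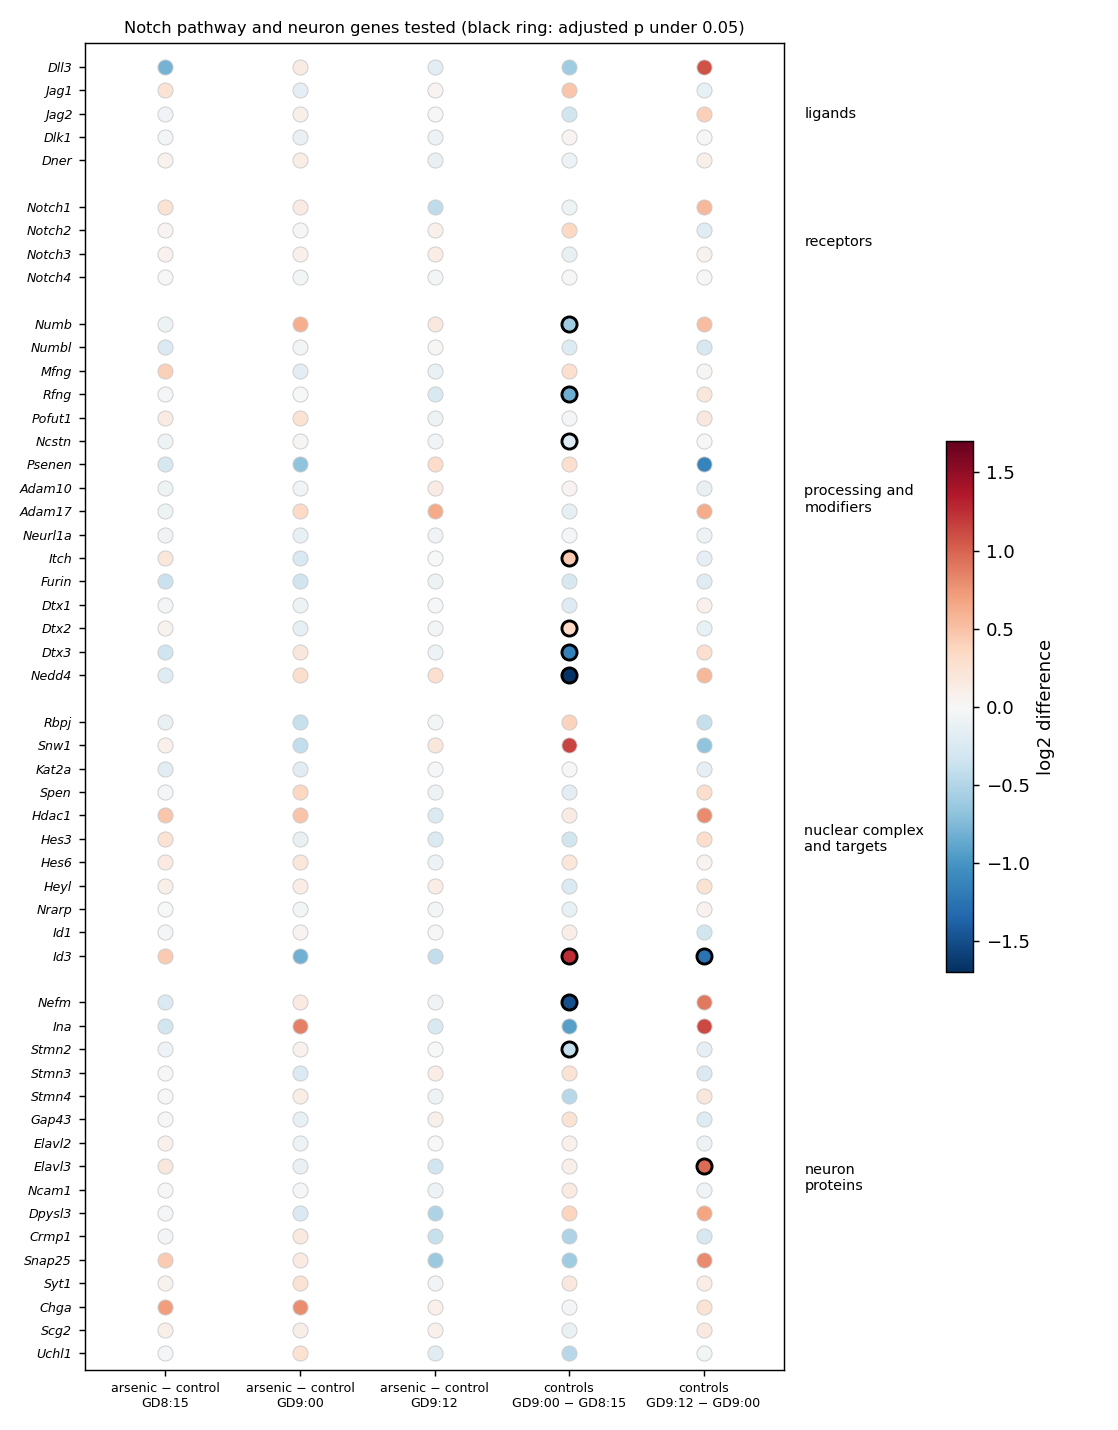
Log2 difference (colour) of every tested Notch pathway and neuron protein gene (rows) in 5 contrasts (columns); a black ring marks an adjusted p under 0.05 by limma. The 3 columns of arsenic minus control hold no ring, and 7 of the 16 processing factors and modifiers are ringed between GD8:15 and GD9:00 in controls, where 15% of all probes were called.

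Neuron protein genes did not move as a block with Nefm. Of 16 tested, Nefm and Stmn2 fell and none rose from GD8:15 to GD9:00 in controls, where 15% of all probes were called (6.83% lower), with a median of -0.07. Stmn2, a microtubule regulator of growing axons, fell by 0.41 ± 0.13 on the log2 scale (adjusted p = 0.0427 by limma). Ina, which encodes another neuronal intermediate filament, read -0.94 ± 0.48 and then 1.12 ± 0.52 over the 2 intervals (adjusted p = 0.19 and 0.175). Elavl3, an RNA-binding protein of new neurons, rose by 0.96 ± 0.25 from GD9:00 to GD9:12 in controls (adjusted p = 0.0209), alone of the 16. Over the whole interval in controls Elavl3 and Dpysl3 rose (1.05 each) and Stmn2 and Crmp1 fell (-0.56 and -0.80), 4 of 16 against 7.71% of all probes. The calls of Stmn2 (-0.46) and Crmp1 (-0.31) ended on the deposited scale, and that of Crmp1 also under median centring (-0.51). In arsenic arrays Stmn2, Crmp1 and Snap25 fell over that interval (-0.48, -1.14 and -0.88) and none rose, 3 of 16 against 13.8% of all probes. The Snap25 call ended on the deposited scale (-0.44), under median centring (-0.44) and after local subtraction (-0.75). The Stmn2 call in arsenic arrays ended on the deposited scale (-0.53). No neuron protein gene was called between arms.

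Of 13 tested neuron subtype factors, 1 was called from GD8:15 to GD9:00 in controls, Isl1, against 15% of all probes. For the 3 lists that follow, 11.2% of all probes were called from GD9:00 to GD9:12 in controls and 7.71% over the whole interval. In arsenic arrays 4.21%, 3.88% and 13.8% were called in these 3 contrasts in turn. From GD9:00 to GD9:12 in controls Isl1 fell while Barhl1, a homeodomain factor of dorsal interneurons, rose by 1.14 ± 0.15 (adjusted p = 0.000179 by limma). Barhl1 also rose there in arsenic arrays, by 0.62 ± 0.15 (adjusted p = 0.0262). Over the whole interval Barhl1 rose in both arms (0.95 in controls and 0.64 with arsenic, adjusted p = 0.00101 and 0.00511). The arsenic call over that interval ended on the deposited scale (0.66). Pou3f1, a POU-domain factor, fell over the whole interval in controls (-0.95, adjusted p = 0.0428). En1, an engrailed homeodomain factor, rose over it in arsenic arrays (1.58 ± 0.39, adjusted p = 0.0121), from a lower start. Its group means at GD8:15 were 9.98 with arsenic and 11.56 in controls (-1.58 ± 0.39, adjusted p = 0.295 by limma). At GD9:12 they were 11.56 and 12.12. The Pou3f1 call ended on the deposited scale (-0.47) and under median centring (-0.68). Of 9 tested proneural factors, Ebf3 fell from GD8:15 to GD9:00 in controls (-0.51 ± 0.13, adjusted p = 0.0125). Myt1 rose from GD9:00 to GD9:12 in both arms (0.68 ± 0.20 and 0.74 ± 0.20, adjusted p = 0.0323 and 0.0433). Both Myt1 calls ended with the title-code series as a block (0.80 and 0.74, adjusted p = 0.0535 and 0.0635 by limma). Neurog3 fell in arsenic arrays, by 0.53 on the log2 scale to GD9:00 and by 0.70 to GD9:12, both from GD8:15. The first of these calls ended under median centring (-0.47), on the deposited scale (-0.73) and after local subtraction (-0.42). The second ended on the deposited scale (-0.52). Neurog2 was below the filter. Of 9 progenitor markers, Sox2 fell from GD8:15 to GD9:00 in controls (-0.96 ± 0.31, adjusted p = 0.0413). Fabp7 rose from GD9:00 to GD9:12 in both arms (1.18 ± 0.29 in controls and 1.55 ± 0.29 with arsenic, adjusted p = 0.0133 and 0.00522). The Sox2 call ended under median centring (-0.76) and after local subtraction (-0.70). No gene of these 3 lists was called between arms. With the title-code series as a block, none of the 20 list genes called from GD8:15 to GD9:00 in controls, over all lists, kept the call, and 9 of 12 did from GD9:00 to GD9:12. In arsenic arrays the block ended 10 of 10 calls from GD8:15 to GD9:00 and 4 of 13 from GD9:00 to GD9:12. Over the whole interval it ended 17 of 19 calls in controls and 18 of 18 in arsenic arrays, those of Elavl3, Dpysl3, Stmn2, Crmp1, Snap25, Adam17, Pou3f1, En1 and Neurog3 among them.

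Some markers of other cell types that can carry Isl1 also moved with stage. For the lists here, 15% of all probes were called from GD8:15 to GD9:00 in controls (8.15% higher and 6.83% lower). From GD9:00 to GD9:12 it was 11.2% (7.42% lower). Of 11 tested cardiac and second heart field markers, Hand1 and Actc1 fell from GD8:15 to GD9:00 in controls (-1.20 and -1.91), Myl7 fell from GD9:00 to GD9:12 (-2.89), and none rose in either interval. The Actc1 call ended under median centring (-1.51). The summed level of the 16 such markers on the array, tested or not, ran from 19553 to 37737 on GD8:15 controls, 5911 to 21610 on GD9:00 controls and 4752 to 8504 on GD9:12 controls. On arsenic arrays it ran from 7738 to 14939 at GD8:15, below every control of that stage, from 10713 to 26883 at GD9:00 and from 4468 to 7336 at GD9:12. Actc1 and Myl7 weigh most in this sum on GD8:15 controls, with mean log2 levels of 13.29 and 13.31. At GD8:15, 7 of the 11 tested markers read lower with arsenic and 4 higher. Between arms there, 4 of the 11 had an unadjusted p under 0.05, against 7.29% of all probes, among them Actc1 (-1.57, adjusted p = 0.518 by limma) and Myl7 (-1.82, adjusted p = 0.399). Tnnt2, Myh6 and Myh7 were below the filter. Of 10 endoderm markers, Foxa2 and Cldn4 rose to GD9:00 in controls (0.43 and 0.92) and none was called from GD9:00 to GD9:12. On the deposited scale Foxa2 read -0.06 and Cldn4 0.58, and neither passed. Their summed level was 2851 to 3467, 3017 to 3620 and 3095 to 3395 on controls of the 3 stages. Among 7 surface ectoderm markers the keratin gene Krt8 took the same course as Isl1 (0.53, then -0.80), Krt18 fell to GD9:12 (-1.41), and Cdh1 and Perp fell to GD9:00 (-0.90 and -0.53). On the deposited scale Krt8 read 0.08, then -0.20, and Krt18 read -0.64, and these calls ended. The part of these cell types in the Isl1 and Dll3 results was not tested.

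For Dll3, the 11 tested markers of paraxial mesoderm and somites, Dll3 among them, held no called gene from GD8:15 to GD9:00 or from GD9:00 to GD9:12 in controls, nor between arms. Tcf15, a somite transcription factor, fell over the whole interval in controls (-0.66, adjusted p = 0.0183 by limma). Aldh1a2, a retinoic acid synthesis enzyme, fell in arsenic arrays from GD8:15 to GD9:00 and to GD9:12 (-1.66 and -1.91, adjusted p = 0.0195 and 0.00191). The Tcf15 call ended on the deposited scale (-0.44), and that of Aldh1a2 to GD9:00 under median centring (-1.39). With the title-code series as a block the Tcf15 call (-0.17) and both Aldh1a2 calls (-2.61 and -2.86) ended. At an unadjusted p of 0.05, Aldh1a2 and Dll3 passed between arms at GD8:15, in opposite directions (1.08 and -0.80, adjusted p = 0.518 and 0.661 by limma). Tbx6 and Mesp2, which mark presomitic mesoderm, passed the filter. The summed level of the 16 list genes on the array, tested or not, ran from 5274 to 6494 on GD8:15 controls and from 5004 to 7050 on GD8:15 arsenic arrays, ranges that overlap. Of 14 neural crest and placode markers none was called in any contrast.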

How the data were processed

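The deposited table holds 1-colour intensity values, whole numbers that the authors had scaled so that array means are equal within each stage, as the values show. The software behind them is not given in the sources used here. Values of 1 or 2, below the next lowest value of 56, were set to missing (838 in all). Log2 values were quantile-normalised, and probes were tested if measured on 2 or more arrays per group, with a mean above the lowest 25% of probes. All 22 arrays entered 1 model with 6 group means (limma 3.58.1, lmFit and eBayes, R 4.3.3; figures with Python 3.11.15 and matplotlib 3.10.9). P-values were adjusted by Benjamini-Hochberg over 7830 probes, threshold 0.05. The labels do not say whether arrays came from separate dams, so the p-values reflect spread among these samples, which may be technical. The number of arrays limits the precision.

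The 4 genes and all lists were chosen with earlier results of these data known. In each list a gene stands for its brightest probe. The naming rule took list genes past the threshold, up to 4 of lowest p per contrast, the 5 probes most like each of the 4 genes, and Folr2, Xist and Eif2s3y. The text names those in the contrasts it describes, and some others as absent or as examples. Symbols come from the array annotation, of which 9323 matched RefSeq by gene ID. Local subtraction takes from each value the running median deviation of 51 neighbouring probe numbers. It, and masking values where that median was under -0.3, were added after seeing the data. Alternatives changed the scaling, filter, placeholders, model, block and arrays used. The pipeline was tested on simulated data.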

Additional observations from a re-analysis of the deposited data

Results flagged for a closer look

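In the groups of 4 arrays, 16 sets of values of the 4 genes were examined for an array far from the rest, of which chance alone marks about 1 in 20. Only Nefm on the fourth GD9:00 control was found. It read 6.91, while the other controls of that group read 7.42, 7.34 and 7.42, a gap of 0.855 of the group's whole range. The median deviation of its 51 neighbouring probe numbers on that array was -0.53. After local subtraction the array read 7.43, against 7.31, 7.25 and 7.48 on the others. Leaving the array out moved the fall of Nefm from GD8:15 to GD9:00 in controls within the range of -1.60 to -1.33, and its call was kept.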

How the results depend on the processing

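Main values were recomputed under 13 other settings and with each of the 22 arrays left out. Values below are log2 differences, and probe counts are those called by limma.

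On the authors' scaling, Isl1 calls ended in controls (0.25 to GD9:00, -0.37 to GD9:12) and in arsenic arrays (0.14). Differences for Dll3 that then passed were 1.95 and 1.99 in arsenic arrays and 1.45 and 2.26 in controls. For Nefm they were 0.98 (arsenic) and 1.81 (controls) from GD9:00, and for Numb 1.30. Signs turned for Dll3 (-0.03) and Numb (-0.19) from GD8:15 to GD9:00 with arsenic, for Numb from GD8:15 to GD9:12 in controls (0.24), and for Isl1 (0.11) and Numb (0.14) between arms at GD8:15. Counts became 2744, 5612 and 1421 in controls, 151 and 1816 in arsenic arrays, and 1 between arms at GD9:00. On this scale the median of all tested probes itself shifted in controls, by -0.49 to GD9:00 and by 0.79 from GD9:00 to GD9:12. In arsenic arrays it shifted by 0.33 from GD9:00 to GD9:12. Relative to that median, Dll3, Nefm and Numb differed by 1.47, 1.02 and 0.52 from GD9:00 to GD9:12 in controls.

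Under median centring Dll3 passed at 1.96 and 1.73 (arsenic) and at 1.25 and 1.55 (controls), and Nefm at 1.10. Calls ended for Isl1 with arsenic (0.40) and Numb in controls (-0.56). Signs turned for Dll3 between arms at GD9:00 (-0.45) and Numb from GD8:15 to GD9:12 in controls (0.04). Counts were 974 and 1364 in controls, 62 and 765 in arsenic arrays, and 1 between arms at GD9:00.

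Array weights raised counts to 1972, 1801 and 2034 in controls, 887, 1434 and 1667 in arsenic arrays, and 4, 110 and 1 between arms. Numb between arms at GD9:00 then passed (0.64, adjusted p = 0.0344; 0.0344 to 1 over its alternatives, leave-one-out included), as did Numb (0.69), Dll3 (1.26) and Nefm (0.84) from GD9:00 to GD9:12 in controls, and Dll3 (1.14), Isl1 (-0.58) and Nefm (-1.42) in arsenic arrays. Nefm between arms at GD8:15 (0.05) and Numb from GD8:15 to GD9:00 with arsenic (-0.07) turned.

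The title-code block ended the calls from GD8:15 to GD9:00 of Isl1 (0.40, and 0.10 with arsenic), Nefm (-1.28) and Numb (-0.46), and turned Isl1 with arsenic (-0.38) and Numb in controls (0.06) to GD9:12. Counts were 35, 519 and 47 in controls, 6 and 7 in arsenic arrays, and 2 between arms at GD9:00.

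Fitting the compared groups alone ended Isl1 with arsenic (0.51, adjusted p = 0.256) and Numb in controls (-0.61, adjusted p = 0.0994), and Nefm passed from GD9:00 to GD9:12 (0.89 and 0.67). Counts were 615 in controls and 47 and 692 in arsenic arrays. Local subtraction and local masking ended Numb in controls (-0.35 and -0.33) and passed Dll3 over GD8:15 to GD9:12 with arsenic (1.03 and 1.10). Subtraction also passed Dll3 (1.09) in controls and Isl1 (-0.53) with arsenic from GD9:00. They called 4 and 3 probes between arms at GD8:15. Masking bands by group (3 probes), kept placeholders (3) and trended robust eBayes (5) gave similar counts there, and the first passed Dll3 (1.10, adjusted p = 0.0498). Leaving out 50% of probes passed that Dll3 difference (1.10), ended Isl1 with arsenic (0.51, adjusted p = 0.0784) and called 726 in controls to GD9:00. Without any filter that Isl1 call also ended (0.51, adjusted p = 0.0501). The cause was not tested in any of these cases, apart from fewer arrays or probes where these were left out.

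With an array left out, results that changed call or sign ranged as follows. Between arms, Dll3 ran from -0.01 to 0.32 at GD9:00 and from -0.56 to 0.11 at GD9:12, Nefm from -0.68 to 0.14 and Numb from -0.18 to 0.05 at GD8:15, and Numb from 0.49 to 0.82 at GD9:00. In controls, Numb ran from -0.80 to -0.50 up to GD9:00 (call lost in 6 fits) and from 0.42 to 0.72 after it, Dll3 from 0.79 to 1.46 and Nefm from 0.77 to 0.95. In arsenic arrays up to GD9:00, Isl1 ran from 0.39 to 0.69, Nefm from -1.49 to -0.66 and Numb from -0.04 to 0.21. From GD9:00 to GD9:12, Isl1 ran from -0.66 to -0.36 and Numb from -0.03 to 0.22. From GD8:15 to GD9:12, Dll3 ran from 0.75 to 1.42, Isl1 from -0.02 to 0.10 and Nefm from -0.81 to 0.01. Counts ran from 671 to 1394, 402 to 1043 and 290 to 727 in controls, from 145 to 406, 130 to 361 and 694 to 1201 in arsenic arrays, from 0 to 5, 35 and 1 between arms, and from 0 to 4 for any change of the arsenic effect.

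No paired analysis was possible because replicate numbers here are in order of deposit and pair nothing.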
